A study of Fukomys damarensis and Heterocephalus glaber and Mus musculus with 160 samples.

Results

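Heart-only active enhancers of the guinea pig are stretches of chromatin with a consensus peak of both enhancer marks in the heart, no consensus peak of the promoter mark there, and no consensus peak of any measured mark in the liver of the same animals. Peaks of single animals that reached no consensus could still lie there. They were chosen from chromatin immunoprecipitation sequencing (ChIP-seq) peak lists, in which a peak is a place where an antibody recovered more DNA than an untreated chromatin control. A consensus region of a tissue and mark was made by merging peaks that overlapped a peak of another animal by at least 50% of the shorter one, and the same overlap rule was used for every later step. Of 60434 consensus regions of heart H3K27ac, 31222 overlapped heart H3K4me1, and 23973 of those had no heart H3K4me3. These 23973 regions are called heart active enhancers below. Of them, 10774 overlapped no liver consensus region of any of the 3 marks, and these are the heart-only active enhancers (44.9%, Wilson 95% interval 44.3 to 45.6%, which covers counting error only). The other 13199 overlapped at least 1 liver region and are called shared. Over heart and liver of the 4 rodents of the study, the same rules gave 251122 active enhancers.

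The libraries came from heart and liver of 3 guinea pigs (Cavia porcellus), GuineaPig7, GuineaPig8 and GuineaPig9, which the labels give as wild-type adult males aged 2.3 months, with no treatment. Each animal gave 1 library of each of 3 antibodies (H3K4me3, H3K27ac, H3K4me1) in each tissue, so that 18 peak lists in 6 groups of 3 were used. The whole heart, cleared of blood clots, and the perfused liver were diced and crosslinked, so each library mixes all cell types of the organ. A weak peak from all cells and a strong peak from a few cells cannot be told apart in such data. The study also covered mouse and both naked and Damaraland mole-rats, and its stated design is a comparison of these histone marks between tissues and species.

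Enhancers are DNA elements that raise the transcription of a gene from a distance, often from many kilobases away and across intervening genes. Nucleosomes beside them carry a single methyl group on lysine 4 of histone H3 (H3K4me1), placed mainly by the methyltransferases KMT2C and KMT2D, and when the element is active also an acetyl group on lysine 27 (H3K27ac), placed by the acetyltransferases CBP and p300. The trimethylated form of lysine 4 (H3K4me3) marks active promoters, so its absence separates enhancers from gene starts. Enhancers differ between tissues far more than promoters do. In heart muscle many are bound by factors such as GATA4, TBX5 and MEF2C, which act together on genes of contraction and conduction.

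The heart lists held 79688 to 97784 peaks per animal for H3K27ac, 90479 to 130362 for H3K4me1 and 21481 to 24629 for H3K4me3. The liver lists held 91478 to 100473, 119768 to 136264 and 14782 to 16530 peaks. Read depth is unknown, since a peak list carries no read numbers. Between lists of the same tissue and mark, the Jaccard index (bases covered by both over bases covered by either) ranged from 0.373 for heart H3K4me1 to 0.806 for heart H3K4me3. The heart libraries of GuineaPig9 bear identifiers of another series (vl) than the other libraries used here (do), and the labels do not say what that means. No annotation of the build was used, so the tissue labels were not checked against marker genes and no region was assigned to a gene.

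The members were short regions. Their median width was 823.5 bases, the 25th and 75th percentiles were 519 and 1423 bases, and the extremes were 217 and 9981 bases. Shared enhancers had a median of 1204 bases, and liver-only active enhancers, chosen by the mirrored rule in liver, a median of 1086 bases. All 10774 members together covered 12.1 Mb, against 22.3 Mb for the 13199 shared enhancers. Within single libraries the H3K27ac peak at a member had a median width of 445 bases in GuineaPig7, 644 in GuineaPig8 and 519 in GuineaPig9. At shared enhancers the same medians were 612, 908 and 729 bases. The member peaks were the narrower ones in each of the 3 animals, although the animals differed so much that the ranges of the medians overlapped. On the log2 scale the difference was -0.48 ± 0.02 (SD, n = 3 animals), a ratio of 0.716. The two-sided exact sign-flip test over the 3 animals gave p = 0.25, also after Benjamini-Hochberg adjustment over 5 comparisons. With 3 animals this test cannot go below 0.25, so none of the comparisons below can pass 0.05.

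H3K27ac was lower at the members than at shared enhancers. The median fold enrichment (the peak caller's ratio of signal over background, as deposited) of the strongest H3K27ac peak at each member was 5.74 in GuineaPig7, 6.13 in GuineaPig8 and 6.23 in GuineaPig9. At shared enhancers it was 6.68, 7.24 and 7.22. The members' medians were all below the shared ones, with no overlap between the sets. The log2 difference within a library was -0.22 ± 0.01 (SD, n = 3), a ratio of 0.856 (exact sign-flip p = 0.25, adjusted 0.25). H3K4me1, the mark of active and primed enhancers alike, differed in the same direction. Its median fold was 5.39, 5.32 and 5.50 at members and 5.99, 5.99 and 6.26 at shared enhancers, again without overlap. The log2 difference was -0.17 ± 0.02 (SD, n = 3), a ratio of 0.889 (exact sign-flip p = 0.25, adjusted 0.25).

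**Figure D1:**
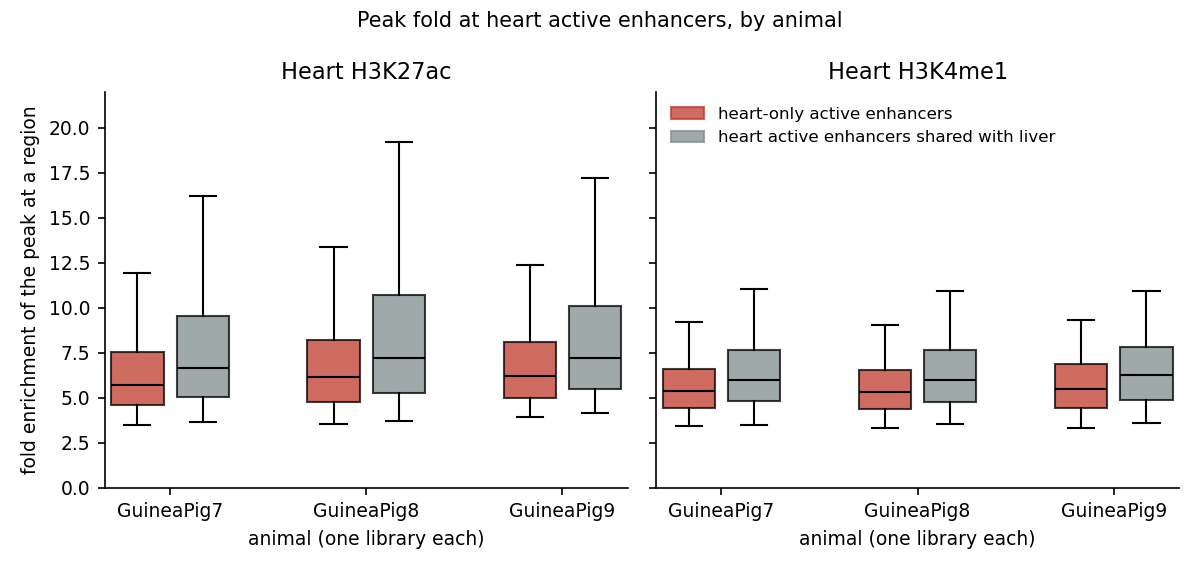
Fold enrichment (linear scale) of the strongest heart H3K27ac peak (left) and H3K4me1 peak (right) at each region, by animal. Boxes span the 25th to 75th percentiles with the median as a line and whiskers reach the 5th and 95th percentiles. In each library the heart-only median lies below the shared one (H3K27ac 5.74 against 6.68, 6.13 against 7.24 and 6.23 against 7.22), and the H3K27ac whiskers of shared enhancers reach higher.

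Much of the difference in H3K27ac fold moved with width. Fold and width of a member were correlated across members (Spearman's rho = 0.73 over 10774 members, given as a description because members share their libraries and a wide region can hold several peaks). When heart active enhancers were divided into 4 classes of width with near equal numbers, the median of the members' mean H3K27ac fold was 4.90 in the narrowest class (217 to 573 bases) against 4.92 for shared enhancers. It was 5.61 against 5.72 in the next class (574 to 994 bases) and 6.82 against 7.11 in the third (995 to 1808 bases). In the widest class, from 1809 bases up, it was 9.43 against 10.9. Averaged over the classes, the log2 difference per library was -0.09 for H3K27ac and -0.13 for H3K4me1, with the members lower in each of the 3 animals (exact sign-flip p = 0.25 for both, a setting added after the data were seen). Counting as overlapping only regions that share 50% of the longer one gave an H3K27ac difference of -0.44.

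Within the heart lists the members stood near the middle for H3K27ac and above it for H3K4me1, and below shared enhancers for both marks. Ranked by fold among all peaks of the same list, the median member stood at percentile 52.0, 58.6 and 50.5 for H3K27ac in GuineaPig7, 8 and 9, and at percentile 65.9, 67.8 and 73.5 for H3K4me1. The median shared enhancer stood at percentile 62.6, 68.2 and 62.9 for H3K27ac and at 77.1, 79.6 and 83.4 for H3K4me1. Of the members with an H3K27ac peak, 0.761%, 2.70% and 1.84% were in the top 10% of their list. For H3K4me1 the shares in the top 10% were 17.1%, 18.0% and 23.1%. The ranked lists also hold peaks at heart H3K4me3, which the rule left out. Of the 60434 H3K27ac consensus regions, 17842 overlapped heart H3K4me3. A member was ranked by its strongest peak, and the shares in the top 10% were not computed for shared enhancers. The folds of the 2 marks at a member were weakly related across members (rho = 0.13 over 10762 members, a description).

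Most members had an H3K27ac peak in all 3 hearts. H3K27ac was called at 9328 members in GuineaPig7, 10171 in GuineaPig8 and 8706 in GuineaPig9, and at 6657 (61.8%) in all 3. H3K4me1 was called in all 3 animals at 6485 members (60.2%), and both marks in all 3 animals at 4639 (43.1%). A heart H3K4me3 peak met the overlap rule at 123 members in 1 animal and at 8 in 2, and at none in 3. Shared enhancers had H3K27ac in all 3 animals at 74.7% and H3K4me1 at 76.6%. Members called in only 2 animals were narrower and weaker, with a median width of 502 bases and median folds of 4.85, 5.01 and 5.22. Those called in all 3 had a median width of 1212 bases and folds of 6.36, 7.07 and 6.71. The fold of a member in one animal went with its fold in another, with rho from 0.49 to 0.50 for H3K27ac and from 0.27 to 0.29 for H3K4me1 over the 3 pairs of animals (descriptions over 7260 to 8725 members).

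The number of members depends on the number of hearts. With only 2 hearts, where a consensus region needs both, it was 6910 without GuineaPig7, 6260 without GuineaPig8 and 6731 without GuineaPig9. Requiring all 3 animals in each consensus left 5876 members, a −log10 q of at least 4 for each peak left 6662, and the overlap of 50% of the longer region left 6181.

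The summits, the highest points of the peaks, were compared between animals at each member. The compared peaks overlap the same short region, with median H3K27ac peak widths of 445, 644 and 519 bases in GuineaPig7, 8 and 9. This limits how far apart summits can lie, and distances for randomly placed summits were not computed. The H3K27ac summits of 2 animals lay a median of 121 bases apart for GuineaPig7 and GuineaPig8, 146.5 for GuineaPig7 and GuineaPig9, and 142 for GuineaPig8 and GuineaPig9. H3K4me1 summits were farther apart between animals, with medians of 220, 268 and 251 bases. Within an animal, the H3K27ac and H3K4me1 summits of a member lay 229, 208 and 272.5 bases apart (medians for GuineaPig7, 8 and 9). The H3K4me1 region usually reached beyond the acetylated one: it extended past both edges at 5069 members (47.0%), past one edge at 4061 (37.7%) and lay wholly inside at 1644 (15.3%). The median member had 94.96% of its bases covered by H3K4me1, and 65.6% of the members lay on an H3K4me1 region wider than the member itself.

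No liver consensus region at a member is a condition of the rule, yet single liver lists were not empty there. A peak of at least 1 liver list met the overlap rule at 2724 members (25.3%). Liver H3K27ac peaks were present at 870 members in GuineaPig7, 211 in GuineaPig8 and 584 in GuineaPig9, and liver H3K4me1 peaks at 1245, 426 and 396. Liver H3K4me3 was called at none of the members in any of the 3 animals. The liver peaks at members thus came most often from GuineaPig7, and only 12 members had a liver H3K27ac peak in all 3 lists without these meeting the consensus rule at the member. A further measure of the edge is contact: 670 members touched a liver consensus region by less than the rule asks. The 7767 members (72.1%) with no liver peak and no contact had a median width of 777 bases and median H3K27ac folds of 5.63, 6.02 and 5.99. The 2724 members with a peak in at least 1 liver list were wider, with a median of 1021.5 bases and folds of 5.93, 6.55 and 6.54. The 8050 members with none had a median of 769.5 bases, and their mean fold over the animals had a median of 5.76, against 6.29 for those with a liver peak. Members with a liver overlap of 40 to 50% of the shorter region, just inside the threshold, numbered 173 with a median width of 844 bases and a median fold of 5.89. The 230 shared enhancers with an overlap of 50 to 60%, just outside it, had 856 bases and a fold of 5.78.

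The members of highest acetylation, picked by their mean over the 3 hearts, were high in each heart, which this choice favours. The 10 with the highest mean H3K27ac fold among members found in all 3 animals had means from 22.4 to 28.7, against a median of 5.88 over all members. The first, at DS562856.1:65179734-65181939 (Cavpor3.0, 2206 bases), had an H3K27ac fold of 27.7 in GuineaPig7, 32.4 in GuineaPig8 and 26.1 in GuineaPig9. It lay 1.59 kb from the nearest heart H3K4me3 region, no liver list had a peak there, and its H3K4me1 folds of 4.95, 6.17 and 4.91 were those of an average member. Fold values of different animals come from lists of unknown depth and are given here side by side. The second, at DS562855.1:4490876-4493919 (3044 bases), had H3K27ac folds of 18.9, 35.6 and 24.9. Its summits fell within 21 bases of each other in the 3 animals. It lay 22.7 kb from H3K4me3.

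The third, at DS563176.1:144965-147569 (2605 bases), had H3K27ac folds of 18.8, 30.1 and 24.6 and belonged to a cluster of 7 members. The fourth, at DS562995.1:627886-634240, was the second widest of the 10 with 6355 bases and had folds of 24.1, 25.8 and 23.1. At 1.94 kb it was also near H3K4me3, and 1 liver list had a peak there. The widest of the 10, at DS562962.1:1366493-1374044 (7552 bases), had folds of 22.8, 29.2 and 17.2, and its summits spread over 3698 bases. Such a spread shows that different parts of a wide region held the highest point in different animals. Over the 10 regions the distance to H3K4me3 went from 1.59 to 90.4 kb, and 7 of the 10 had no peak in any liver list. Their mean H3K4me1 folds ranged from 4.92 to 9.37.

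**Figure D2:**
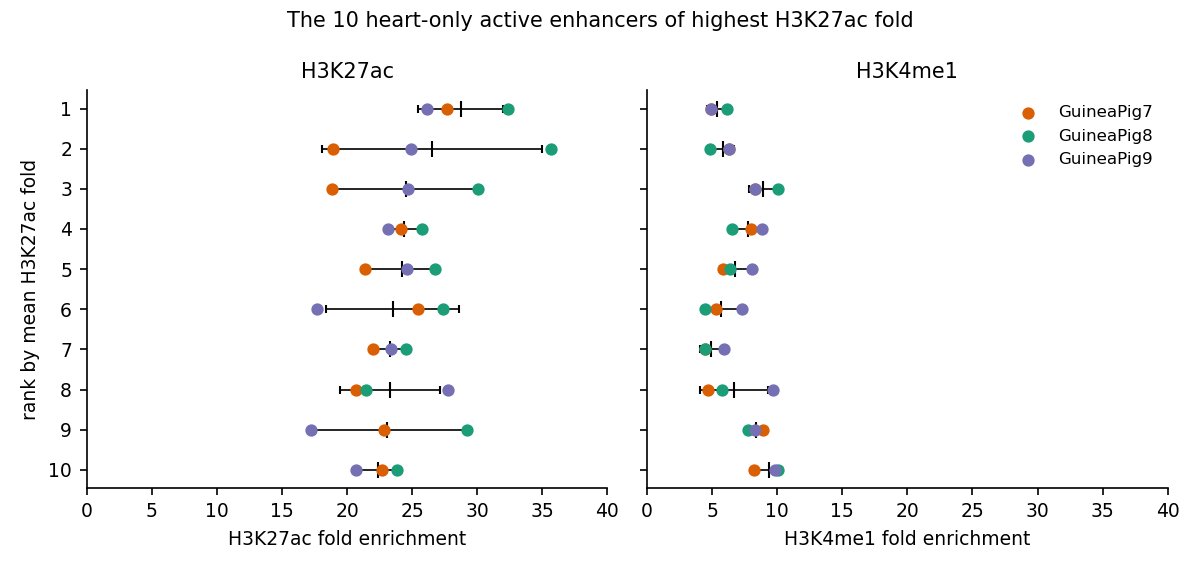
H3K27ac fold (left) and H3K4me1 fold (right) of the 10 heart-only active enhancers with the highest mean H3K27ac fold, on linear axes. Points are single animals, and the black tick and bar are the mean and SD over 3 animals. The H3K27ac means run from 28.7 down to 22.4, while the H3K4me1 means stay between 4.92 and 9.37.

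The widest members were also acetylated above the members' median, without being the strongest. The widest, at DS562908.1:12928778-12938758 (9981 bases), had H3K27ac folds of 13.0, 13.5 and 11.7, and 2 liver lists had a peak there. The next, at DS563021.1:832025-841728 (9704 bases), had folds of 19.7, 22.5 and 15.4 and lay in a cluster of 5 members. The 5 widest spanned 8964 to 9981 bases with mean folds of 12.7 to 19.2, and they lay 14.3 to 120 kb from heart H3K4me3.

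The members lay far from promoters. Their median distance to the nearest heart H3K4me3 consensus region was 28.1 kb (28116.5 bases), against 18241 bases for shared enhancers. Liver-only enhancers had a median of 29977.5 bases to liver H3K4me3. Within 1 kb lay 2.73% of the members, within 10 kb 24.98%, within 50 kb 67.4% and within 100 kb 84.5%. For shared enhancers the same shares were 5.88%, 35.1%, 77.2% and 90.9%. Against the H3K4me3 list of each animal, the median distance of the members was 27841 bases in GuineaPig7, 27930 in GuineaPig8 and 26470 in GuineaPig9. For shared enhancers it was 17972, 18429.5 and 16971 bases. The 3 animals were alike, and the sets did not overlap. The log2 difference was 0.62 ± 0.02 (SD, n = 3), a ratio of 1.54 (exact sign-flip p = 0.25, adjusted 0.25). Unlike the fold, this difference did not shrink within classes of width, and averaged over the 4 classes it was 0.66. It was larger in the narrowest class (median 28035 bases for members, 15079.5 for shared enhancers) than in the widest (27902 against 19661). How far the exclusion of regions with a liver mark sets this difference in distance was not tested.

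**Figure D3:**
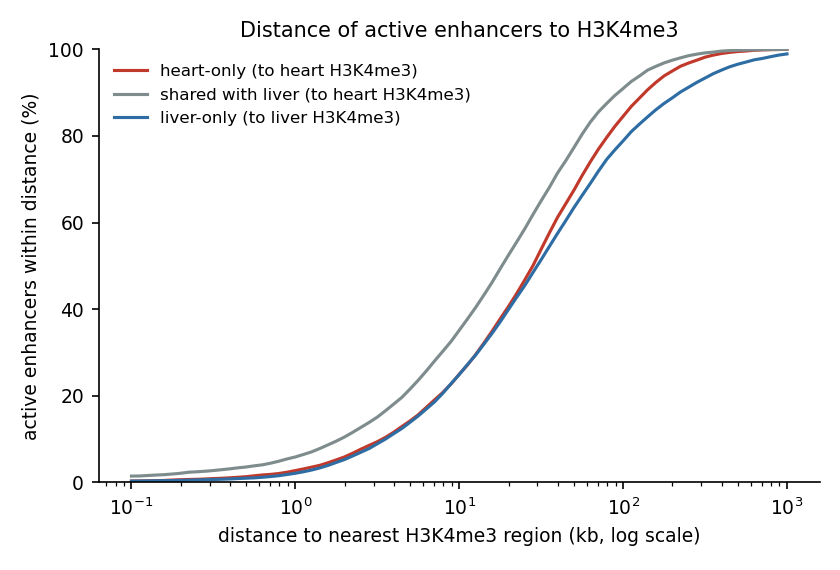
Share of active enhancers (vertical axis, %) within a given distance of the nearest H3K4me3 consensus region of the same tissue (horizontal axis, kb, log scale). The curve of shared enhancers lies above the other two, with 35.1% within 10 kb against 24.98% of the heart-only and 24.89% of the liver-only enhancers. Within 100 kb lay 84.5% of the heart-only and 78.8% of the liver-only enhancers.

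At the extremes, 22 members touched or partly overlapped a heart H3K4me3 region by less than the rule counts. These tie at distance 0. Of the 5 taken by position, which were 796 to 1192 bases wide, the one at DS562860.1:14593389-14594263 had H3K27ac folds of 7.57, 3.79 and 9.80. At the other end 58 members lay over 500 kb from H3K4me3, 4 of them over 1 Mb, and 12 lay on scaffolds without any H3K4me3 region. These distances are lower bounds where a scaffold ends first. Of the 5 farthest, 4 were 393 to 941 bases wide and had H3K27ac called in only 2 hearts, with mean folds from 4.92 to 6.87 beside the median of 5.88 over all members. The exception, at DS562954.1:1602756-1604644 (1889 bases), lay 1357 kb from H3K4me3 and had folds of 20.1, 22.5 and 20.0 in the 3 hearts, with no liver peak. Across all members fold and distance were unrelated (rho = 0.01 over 10762 members, a description).

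The share of heart active enhancers that were heart-only went down with width and up with distance from promoters. By width class it was 54.7% (Wilson interval 53.5 to 56.0%), 51.9%, 44.1% and 29.1% (27.9 to 30.2%) from the narrowest to the widest. By distance it was 34.96% (33.6 to 36.4%) within 5 kb of H3K4me3, 41.0% from 5 to 20 kb, 46.9% from 20 to 50 kb, 50.4% from 50 to 100 kb and 58.2% (56.43 to 60.04%) beyond 100 kb. By H3K27ac fold the share ranged from 54.6% in the lowest of 4 classes to 29.0% in the highest. These intervals count regions as independent, which neighbouring regions of the same 3 animals are not. A wide region can also meet the overlap rule with a small liver region inside it, and the part of this in the shares was not tested.

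**Figure D4:**
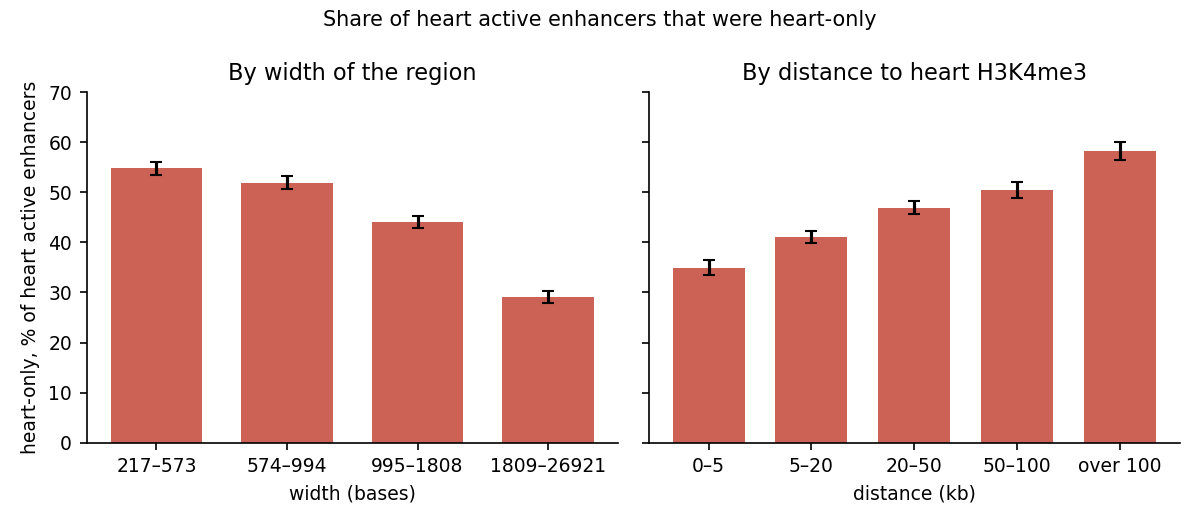
Heart-only share (%) of the 23973 heart active enhancers by 4 classes of region width in bases (left) and, for those on scaffolds with H3K4me3, by distance to heart H3K4me3 in kb (right). Bars are Wilson 95% intervals, for counting error only. The share went from 54.7% to 29.1% with width and from 34.96% to 58.2% with distance.

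The H3K4me3 region nearest to a member was also the more often a heart-only one. It had no liver H3K4me3 consensus region at 4608 of 10762 members (42.8%, Wilson interval 41.9 to 43.8%), against 3533 of 13192 shared enhancers (26.8%, 26.0 to 27.5%). Among all 20031 heart H3K4me3 regions the share was 34.5%. The intervals count enhancers as independent, which they are not, because many have the same nearest H3K4me3 region. The members had 4470 different ones and the shared enhancers 5405. With the lists of each animal, the share at members was 45.0% in GuineaPig7, 51.9% in GuineaPig8 and 55.1% in GuineaPig9. At shared enhancers it was 31.3%, 37.5% and 42.7%. The member share was the higher one in every animal, by 13.7, 14.4 and 12.4 percentage points (mean 13.5 ± 1.01, SD, n = 3, exact sign-flip p = 0.25, a comparison chosen after the data were seen). H3K4me3 regions with none of the 3 marks in liver were nearest to 12.3% of the members and 4.39% of the shared enhancers. Over all nearest H3K4me3 regions, with or without a liver mark, the median width was 1503 bases for members and 1546 for shared enhancers. All heart H3K4me3 regions had a median of 1222 bases. The liver H3K4me3 lists were shorter than the heart lists, and the part of that in the shares was not tested; both sets were read against the same lists.

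This difference was largest near the promoters. Within 5 kb, 48.3% of the members but 24.2% of the shared enhancers had a nearest H3K4me3 region absent from liver. Beyond 100 kb the shares were 35.3% and 29.0%. With the overlap of 50% of the longer region the mean difference over animals was 5.74 points. The rule asks for no liver consensus region of any mark at a member. How far this sets the liver status of the nearest H3K4me3 region was not tested.

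The H3K4me3 regions next to members were a minority of all. The 10762 members with a distance had 4470 different nearest H3K4me3 regions, 22.3% of all in the heart. Of these, 565 were nearest to at least 5 members, 102 to at least 10, and 1 to 32. The 13192 shared enhancers with a distance had 5405 different nearest H3K4me3 regions, also a minority of all.

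Members also lay near each other. Chained wherever the next member was at most 10 kb away, they formed 866 clusters of 3 or more, which held 3566 members (33.1%). Another 1340 pairs held 2680 members, and 4528 members (42.0%) stood alone. There were 22 clusters of 10 or more. In the larger sets the shares in clusters were 42.3% of 13199 shared and 39.8% of 21801 liver-only enhancers. The share depends on how a cluster is drawn: it was 21.6% with a gap of 5 kb and 47.7% with 20 kb. Many neighbours were close enough to be parts of one broken stretch, with the next member within 1 kb at 3266 members (30.4%). Joining those first left 8987 regions with 19.6% in clusters (added after the data were seen), and the overlap of 50% of the longer region gave 13.9%.

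Clustered and single members had near equal widths and folds. Members in clusters had a median width of 838 bases and a median of their mean fold of 5.86, and single members had 822 bases and 5.90. The share found in all 3 hearts was 63.8% in clusters and 60.6% among single members. A peak in at least 1 liver list was present at 22.3% of clustered, 28.8% of single and 16.6% of the 259 members in clusters of 10 or more. The last group lay a median of 40280 bases from H3K4me3, against 26570 for all clustered members and 29079.5 for single ones.

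The largest cluster, at DS562937.1:3562296-3620373, held 17 members in 58.1 kb, of which they covered 41.9%. Its median H3K27ac folds were 7.32 in GuineaPig7, 6.78 in GuineaPig8 and 7.60 in GuineaPig9, above the medians of all members, and 11 of the 17 were found in all 3 hearts. The members' mean folds ran from 3.69 to 16.1, so strong and weak elements lay side by side. Inside it lay 2 shared enhancers, no heart H3K4me3, 1 liver H3K27ac and 5 liver H3K4me1 regions, and the nearest heart H3K4me3 was 17.2 kb away. Of its 17 members, 5 had a peak in at least 1 liver list.

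**Figure D5:**
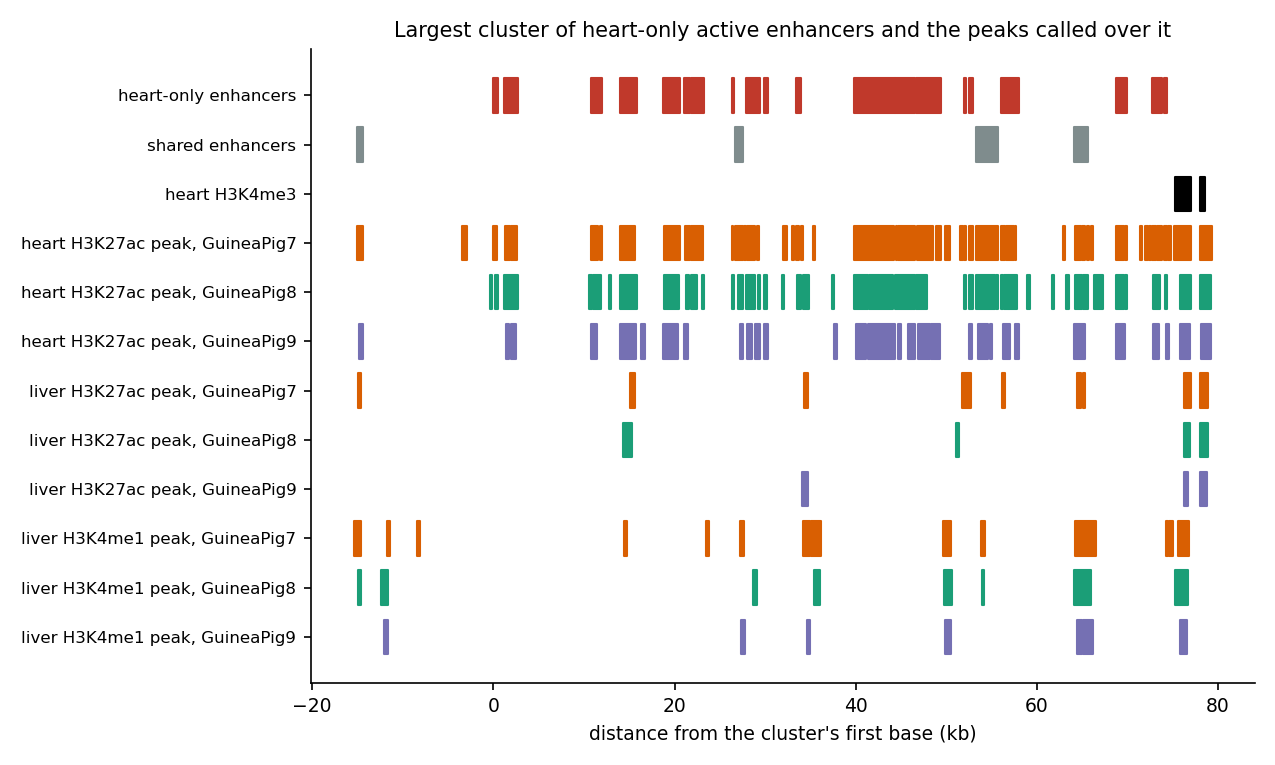
Map of the largest cluster with 20 kb on either side, in kb from the cluster's first base. Rows show consensus regions (heart-only, shared, heart H3K4me3) and below them single peaks by tissue, mark and animal, where colours mark the animal. Heart H3K27ac peaks of all 3 animals spread over the 58.1 kb of the cluster, and liver peaks are scattered. At the right, H3K27ac peaks of both tissues overlap the heart H3K4me3 regions.

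The second cluster, at DS562913.1:7926933-7988958, held 16 members in 62.0 kb, with 1 shared enhancer inside, and lay 66.6 kb from H3K4me3. Of its 16 members, 3 had a peak in at least 1 liver list. A cluster of 14 members lay on the same scaffold at DS562913.1:7402944-7441680. It was without any shared enhancer or liver H3K27ac or H3K4me1 consensus region over 38.7 kb. Its 3 heart H3K4me3 regions had no liver H3K4me3 region either. Its median H3K27ac folds were 6.14, 5.62 and 6.41. Among the remaining clusters named by the rule, that at DS562856.1:48685728-48744061 held 14 members, of which 0 had a peak in a liver list. It had 3 shared enhancers and 5 liver H3K27ac regions inside, and the other, at DS562859.1:48458365-48513598, held 13 members. The latter had no liver H3K27ac or H3K4me1 consensus region inside, though 3 of its 13 members had a peak in a liver list (0 of 14 in the cluster on DS562913.1 without such regions), and 12 of the 13 had H3K27ac in all 3 hearts.

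DS562913.1 had the highest heart-only share of the 64 scaffolds with at least 100 heart active enhancers, 88 of 138 (63.8%). The lowest was 27 of 102 (26.5%) on DS562921.1, and the median scaffold had 45.2%. The members lay on 225 scaffolds in all.

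Spacing against all heart active enhancers set members and shared enhancers only slightly apart. The median distance from a member to the next heart active enhancer found in the same animal was 2800 bases in GuineaPig7, 2387 in GuineaPig8 and 3095 in GuineaPig9. From a shared enhancer it was 2587, 2193 and 2738 bases. The members were the more distant in each animal, but the ranges overlapped across animals. The log2 difference was 0.14 ± 0.03 (SD, n = 3; exact sign-flip p = 0.25, adjusted 0.25). It was 0.27, 0.24 and 0.19 without the heart of GuineaPig7, GuineaPig8 or GuineaPig9 and 0.07 without the liver of GuineaPig7, so its size rests on which libraries enter. It also depended on width, a setting added after the data were seen. In GuineaPig7, 8 and 9 it was 0.44, 0.52 and 0.48 in the widest of the 4 classes and 0.03, 0.08 and 0.09 in the third. In the second class it was -0.08, 0.04 and -0.14, and in the narrowest -0.06, 0.03 and 0.07.

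Leaving out the heart libraries of GuineaPig9, which leaves only those with identifiers of one series, gave log2 differences of -0.25 for H3K27ac fold, -0.16 for H3K4me1 fold, -0.50 for H3K27ac peak width and 0.53 for distance to H3K4me3.

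Among the 4 rodents the heart-only share of heart active enhancers was 39.3% for naked mole-rats, 44.9% for guinea pigs, 47.0% for Damaraland mole-rats and 55.9% for mice. Numbers of libraries and lists differ between the species, so these shares are set side by side without a test. In guinea pig liver 61.4% of 35518 active enhancers were liver-only.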

How the data were processed

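The 18 guinea pig histone lists were used as deposited. Each list holds the peaks of 1 library called against a named input, on Cavpor3.0, per the file names. MACS2 is named in the submitters' processing notes, without a version, and an aligner is not given in the sources used here. Fold enrichment, as deposited by the authors, is the peak caller's ratio of signal over background, on a linear scale. The −log10 p and −log10 q are deposited by the authors beside it, and the deposited score is 10 times the −log10 q. Fold and q depend on read depth, which is unknown, so members and shared enhancers were compared by fold only within a list. The mean fold over the 3 lists was used to rank members and to set up classes, and values of single regions in different animals are descriptions. Positions are counted from 1.

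Overlap, merging, distances (plus 1 base before taking log2) and clusters were computed with NumPy 2.4.6 and pandas 2.3.3 under Python 3.11.15 and drawn with Matplotlib 3.10.9. The code was tested on simulated data, where 478 of 478 planted regions were recovered. These regions lay apart, without clusters, were of similar width and were present in all 3 animals. The simulation thus checks the code and not the recovery in the real lists. For each of 5 comparisons, the median over members and over shared enhancers was taken per heart library. The log2 difference was tested over 3 animals by a two-sided exact sign-flip test with Benjamini-Hochberg adjustment. Heart and liver, and both sets of regions, come from the same animals, named in the labels, which is where the pairing comes from. Regions are not replicates. The rule used the presence and overlap of peaks, and did not use values of fold or distance. Width enters through the overlap, since a small liver region inside a wide heart region meets the rule. Fold went with width, so the comparisons of width and of fold are not fully independent of the rule. How much this adds was not tested. The rule also leaves out regions with any liver mark. How far that sets the distance to H3K4me3 and the liver status of the nearest H3K4me3 region was not tested either. Named regions are the 10 members with the highest mean H3K27ac fold among those with a peak in all 3 animals, the 5 clusters with most members, and the 5 widest, nearest and farthest members. The members and measures were chosen with earlier results of these data known. Gene lists, marker genes, motifs and sequences were not analysed here, because no genome or annotation of this build was used. Alternatives were the overlap rule, a stricter q, consensus in 3 animals, equal list lengths, longer scaffolds, other cluster gaps and leaving out each animal's heart or liver lists.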

Additional observations from a re-analysis of the deposited data

Results flagged for a closer look

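The spacing of active enhancers differed in direction between the tissues. In heart, the distance to the next active enhancer was larger at heart-only than at shared enhancers in each of the 3 animals, with a mean log2 difference of 0.14. Within classes of width this held in every animal only in the third and the widest class. In liver, liver-only enhancers were closer to the next one than shared enhancers in each of the 3 animals (2428, 2311 and 2458.5 bases against 3201, 3454 and 3315.5), with a mean log2 difference of -0.47. The difference between the tissues was not tested. Liver had the larger number of tissue-only enhancers, 21801 against 10774, and the part of this in the difference was not tested. The other 4 comparisons had the same sign in heart and liver in every animal.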

How the results depend on the processing

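The 5 paired comparisons of members with shared enhancers kept their direction under all alternatives run (13 or 14 each), and none had a p under 0.1. The ranges of the log2 difference were -0.44 to -0.09 for H3K27ac fold, -0.21 to -0.13 for H3K4me1 fold, -0.68 to -0.42 for H3K27ac peak width, 0.53 to 0.83 for the distance to H3K4me3 and 0.07 to 0.27 for the distance to the next active enhancer. Without the replicate block, the exact permutation test of 3 against 3 animals, which cannot go below 0.1, was made on the same differences of -0.22, -0.17, -0.48, 0.62 and 0.14 and gave p = 0.1, 0.1, 0.2, 0.1 and 0.4.

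The number of members was 6181 with an overlap of 50% of the longer region, 6662 with a −log10 q of at least 4 and 5876 with consensus in 3 animals, and 6260 to 12952 when 1 animal's heart or liver lists were left out. The median width was 972, 1063 and 1229.5 bases under the first 3 of these settings, 944 with equal list lengths, and 825.5 to 955 with 1 animal's lists left out. The share in clusters was 37.2% with an overlap of 1 base, 13.9% with 50% of the longer, 24.5% with the stricter q, 23.6% with consensus in 3 animals, 21.6% and 47.7% with gaps of 5 and 20 kb, 19.6% after joining members within 1 kb, and 25.1% to 37.2% with 1 animal's lists left out. Leaving out a heart gave fewer members and leaving out a liver gave more. When an animal is left out, a consensus region of that tissue needs a peak in both remaining animals. Fewer heart regions can then qualify as members, and fewer liver regions can exclude them. How far this accounts for the sizes of these shifts was not tested. Gene lists and sequence windows around members were not run. Peak lists carry no depth, so absence from a liver list is absence at that list's threshold.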
